A study of Mus musculus with 6 samples.

Results

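Coagulation and plasminogen genes were examined in mouse macrophages with progranulin (wild type, WT) or without it (PGRN KO) after challenge with the yeast Candida albicans. Progranulin is a secreted protein and the product of Grn. The group was set by name and holds 9 of the 54532 genes in the deposited table: F3, F5, F7, F10, F13a1, Plau, Plaur, Serpinb2 and Thbd. RNA sequencing had been performed on 3 WT libraries, with replicate numbers 1, 2 and 3, and on 3 PGRN KO libraries, with replicate numbers 4, 5 and 6. Per the labels, both genotypes were of the C57BL/6J strain, the macrophages came from the peritoneal cavity, 2000000 cells were plated per well, and 1 fungal cell was added per macrophage for 6 hours. Every library came from challenged cells, although the titles of the WT samples carry the word control, so that genotypes were compared with fungus present and with no baseline. In the text of the study the sequenced macrophages are instead bone marrow-derived and the ratio of fungus to cells is another one; the labels were followed here. According to that text the PGRN KO mice came from a commercial supplier and the WT mice from a university colony. Mice are described there as matched for sex and age, with neither given for these libraries, and nothing says whether each library came from a separate mouse, so that p-values measure the spread between these libraries, which may be technical.

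Blood clotting starts when tissue factor, the product of F3, meets factor VII (F7) on a cell surface, and the complex of both activates factor X (F10). Activated factor X with its cofactor, factor V (F5), makes thrombin, which cuts fibrinogen to fibrin, and factor XIII (F13a1 encodes its A subunit) cross-links the fibrin. Thrombomodulin (Thbd) binds thrombin and turns it towards the activation of protein C, an anticoagulant. Urokinase (Plau), held at the cell surface by its receptor (Plaur), converts plasminogen to plasmin, which dissolves fibrin, and plasminogen activator inhibitor type II (Serpinb2) inhibits urokinase. Macrophages are known to make tissue factor and the urokinase system when activated, and those of the peritoneal cavity are known to make several of the clotting factors themselves.

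The stretches upstream of the start of 5 of these genes are shown for their sequence, since F3, Serpinb2 and Plaur share a motif there and F7 and F10 are neighbours of which F10 alone passed the test. For genes with more than 1 listed start the first was used. Windows from 250 bases before to 50 bases after the start were taken from RefSeq on GRCm38.p6 and were found for 7 of the 9 genes, all but Plau and Thbd. In the lines below capitals mark matches to the AP-1 motif (TGANTCA), in Serpinb2 also to the TATA motif (TATAAA), and in F10 to the hypoxia response motif (ACGTG, read on the opposite strand); F7 held no match.
F3, chr3:121723377-121723456, plus strand: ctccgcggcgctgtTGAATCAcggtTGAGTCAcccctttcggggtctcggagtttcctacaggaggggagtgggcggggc
Serpinb2, chr1:107511303-107511402, plus strand: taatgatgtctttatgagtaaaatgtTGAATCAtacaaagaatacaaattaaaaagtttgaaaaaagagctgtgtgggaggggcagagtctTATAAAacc
Plaur, chr7:24462383-24462442, plus strand: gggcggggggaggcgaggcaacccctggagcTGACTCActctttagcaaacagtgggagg
F10, chr8:13037198-13037277, plus strand: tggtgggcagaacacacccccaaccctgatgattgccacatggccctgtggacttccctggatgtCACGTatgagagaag
F7, chr8:13025924-13026003, plus strand: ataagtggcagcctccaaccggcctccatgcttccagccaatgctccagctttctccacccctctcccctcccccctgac

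The AP-1 motif was found in the windows of 3 of these 7 genes, against 7.81% of the 32851 RefSeq windows of the same length. F3 held it at -146 to -140 and at -135 to -129 relative to the start, Serpinb2 at -94 to -88 and Plaur at -69 to -63. The Sp1 motif (GGGCGG) was found in F3, F5 and Plaur and in 35.7% of all windows, and the TATA motif in Serpinb2, in F3 on the opposite strand past the start, and in 13.6% of all windows. The hypoxia response motif was found in F10 alone among the 7 genes, and in 19.6% of all windows. The NF-κB motif, found in 8.46% of all windows, was in none of the 7. Both strands were searched, and a match describes letters in this window and says nothing of whether a factor was bound.

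The libraries held 15996786 to 17551619 counted fragments, recovered as whole numbers from FPKM and gene length in 100% of non-zero values. FPKM are fragments per kilobase of gene model, scaled to the size of the library, so that levels of different genes can be set side by side. Grn, the targeted gene, was at 323, 337 and 325 FPKM in WT, and in PGRN KO at 0.0166, 0 and 0.0167 FPKM. All 8 general macrophage markers were expressed above the limit for testing, with Lyz2 at 5657 to 8135 FPKM. Gata6, the transcription factor of large peritoneal macrophages, was at 3.78 to 5.07 FPKM in all libraries. Of the 11 markers listed for these cells, however, 5 reached the limit. Timd4 and Selp were at or below 0.204 FPKM, and Naip1, Garnl3, Apoc1 and Alox15 were also below the limit. PGRN KO replicate 6 stood apart from the other libraries in a way that followed gene length, and results that rest on it are given without it as well.

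Transcripts of 4 of the 9 genes were significantly lower in PGRN KO, and none was significantly higher by limma, adjusted or at an unadjusted p under 0.05. These were F3, F10, F13a1 and Thbd, at 36.5% to 64.4% of their WT mean. All 9 genes had a mean of at least 1 FPKM over the 6 libraries, the limit for testing, and were tested with limma on log2(FPKM + 1) among 8882 genes, with p-values adjusted over all of them by the Benjamini-Hochberg method and a threshold of 0.05. On simulated data the share of false calls of this fit was above the threshold. Those data had few changed genes, the same dispersion for all genes and no library like PGRN KO replicate 6, so that the share may differ here. Calls near the threshold are therefore to be read with caution. Of all genes in the fit 24.2% passed, 13.8% lower and 10.4% higher. WT and PGRN KO values were separate for 6 of the 9 genes, against 48.8% of the genes in the fit. The median log2 fold change was -0.40 over the 9 genes, against -0.03 over all genes in the fit. Gene by gene, exact permutation of the FPKM values (two-sided) gave p = 0.1 (the lowest value possible with 3 libraries a group) for the 6 genes with separate groups, and 0.4 to 0.8 for Plaur, Plau and F5.

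**Figure D1:**
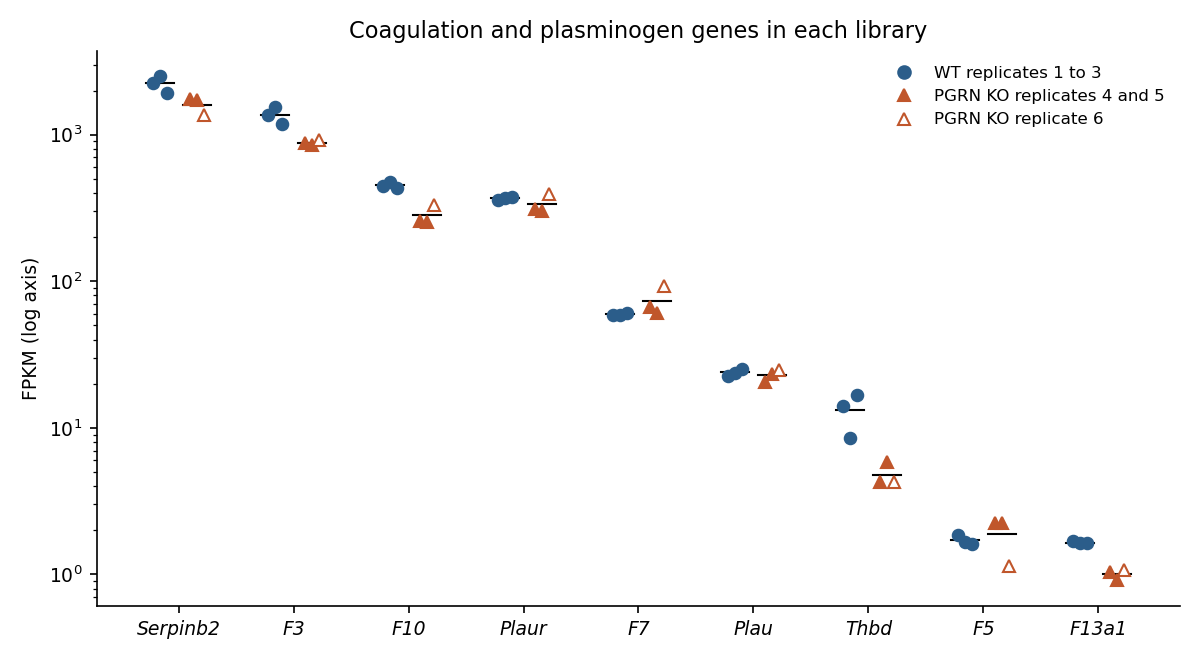
FPKM of the 9 genes (log axis) in each library, with WT as circles, PGRN KO as triangles, PGRN KO replicate 6 as an open triangle and the group means as bars. The genes span from 1.01 FPKM (F13a1 in PGRN KO) to 2238 FPKM (Serpinb2 in WT), and the groups are separate for Serpinb2, F3, F10, F7, Thbd and F13a1.

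The initiator of clotting fell. F3 (ENSMUSG00000028128, chromosome 3, 121723537 to 121735048, GRCm38) was at 1364, 1551 and 1190 FPKM in WT (replicates 1, 2 and 3, in this order throughout), and in PGRN KO (replicates 4, 5 and 6) at 871, 850 and 921 FPKM. The lowest WT library was above the highest PGRN KO library, and the 3 PGRN KO libraries lay closer together than the WT libraries (SD 36.5 against 180.5 FPKM, n = 3 each). The mean of PGRN KO was 64.4% of that of WT (log2 fold change -0.63 ± 0.13, SE; adjusted p by limma 0.0154). F3 ranked 42nd of the 8882 tested genes by mean FPKM. The call was lost without WT replicate 1 (limma adjusted p 0.0790), WT replicate 2 (0.0642) and PGRN KO replicate 4 (0.0537), with a log2 fold change of -0.53 or further from 0 in each. It was also lost with no filter on low values (limma adjusted p 0.0665).

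Factor X fell, and factor VII, its neighbour on chromosome 8, did not pass the threshold. F10 (ENSMUSG00000031444, chromosome 8, 13037308 to 13056676) was at 446, 474 and 434 FPKM in WT, and in PGRN KO at 258, 255 and 333 FPKM. All PGRN KO libraries were lower than any WT library, and PGRN KO replicate 6 was the highest of the 3. On the log2 scale F10 fell by 0.69 ± 0.13 (SE; adjusted p by limma 0.0123). The log2 fold change was -0.81 without PGRN KO replicate 6 (limma adjusted p 0.000519), and the call was lost without WT replicate 1 (0.0626) and WT replicate 2 (0.0603). Of the 31-base words in F10 transcripts, 4.08% also occur in transcripts of other genes, Slc25a20 most of all.

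F7 (ENSMUSG00000031443, chromosome 8, 13026034 to 13035809) ends 1498 bases before F10 starts, on the same strand. It was at 58.9, 59.0 and 60.4 FPKM in WT, and in PGRN KO at 66.4, 61.0 and 93.3 FPKM. The groups were separate by a small margin, and the mean of PGRN KO was raised by replicate 6. The log2 fold change was 0.28 (95% confidence interval -0.10 to 0.66) with a limma adjusted p of 0.236, and it was 0.10 without that library (adjusted p 0.202). F7 passed in none of 13 alternative settings.

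The cofactor of factor X and the A subunit of factor XIII were transcribed at a much lower level. F5 (ENSMUSG00000026579, chromosome 1, 164151838 to 164220277) was at 1.84, 1.67 and 1.62 FPKM in WT, and in PGRN KO at 2.24, 2.25 and 1.14 FPKM, on 146 to 317 fragments per library. Both genes annotated over F5, Gm16588 and Gm16548, were at 0. PGRN KO replicates 4 and 5 were above all WT libraries, while replicate 6 was below all of them. With all libraries the log2 fold change was 0.06 (95% confidence interval -0.35 to 0.47, limma adjusted p 0.826). When replicate 6 was left out it was 0.26 ± 0.079 (SE; adjusted p by limma 0.0418), and with replicate 4 or 5 left out instead it was -0.040 or -0.043.

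F13a1 (ENSMUSG00000039109, chromosome 13, 36867178 to 37050244) was at 1.69, 1.63 and 1.63 FPKM in WT, and in PGRN KO at 1.05, 0.909 and 1.06 FPKM, on 116 to 198 fragments per library. The groups were clearly separate, and neither group varied much. PGRN KO was at 61.1% of WT. On the log2 scale it fell by 0.40 ± 0.089 (SE; adjusted p by limma 0.0203), a size that is understated by the pseudocount of 1 at this level and was -0.66 with a pseudocount of 0.1. Its call was the least stable of the 4, since it was kept without PGRN KO replicate 6 (0.0106) but lost without any other single library (0.0511 to 0.0962).

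The thrombin receptor of the anticoagulant pathway showed the largest difference of the 9 genes. Thbd (ENSMUSG00000074743, chromosome 2, 148404466 to 148408188) was at 14.1, 8.54 and 16.8 FPKM in WT, and in PGRN KO at 4.28, 5.86 and 4.24 FPKM. WT replicate 2 was the lowest of the WT libraries, yet every PGRN KO library was lower still. The mean of PGRN KO stood at 36.5% of that of WT (log2 fold change -1.25 ± 0.24, SE; adjusted p by limma 0.0123). The call was lost without WT replicate 1 (0.0566) and was kept in the other 12 of 13 alternative settings.

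The inhibitor of urokinase was the most abundant of the 9 transcripts and lay close to the threshold. Serpinb2 (ENSMUSG00000062345, chromosome 1, 107511423 to 107535478) was at 2266, 2513 and 1936 FPKM in WT, and in PGRN KO at 1739, 1715 and 1354 FPKM, and it ranked 25th of the 8882 genes by mean FPKM. WT and PGRN KO values were separate, and PGRN KO replicate 6 was the lowest library. PGRN KO was at 71.6% of WT. The limma adjusted p was 0.0640 for a log2 fold change of -0.48 ± 0.16 (SE), and 0.0443 for one of -0.37 when PGRN KO replicate 6 was left out. Serpinb2 overlaps Serpinb10 on the same strand and shares 11.2% of its 31-base words with other transcripts, mainly those of Serpinb10, which was itself at or below 0.137 FPKM.

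Urokinase and its receptor differed less. Plaur (ENSMUSG00000046223, chromosome 7, 24462484 to 24475968) was at 358, 369 and 374 FPKM in WT, and in PGRN KO at 309, 301 and 392 FPKM. Replicates 4 and 5 were below all WT libraries, and replicate 6 was above them. The log2 fold change was -0.15 (95% confidence interval -0.44 to 0.15, limma adjusted p 0.420), and when replicate 6 was left out it was -0.27 ± 0.048 (SE; adjusted p by limma 0.00787). Plau (ENSMUSG00000021822, chromosome 14, 20836660 to 20843385) was at 22.6, 23.8 and 25.2 FPKM in WT, and in PGRN KO at 20.5, 23.2 and 24.6 FPKM, with overlapping groups. Its log2 fold change was -0.07 (95% confidence interval -0.30 to 0.17, limma adjusted p 0.654), and it passed in none of 13 alternative settings.

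**Figure D2:**
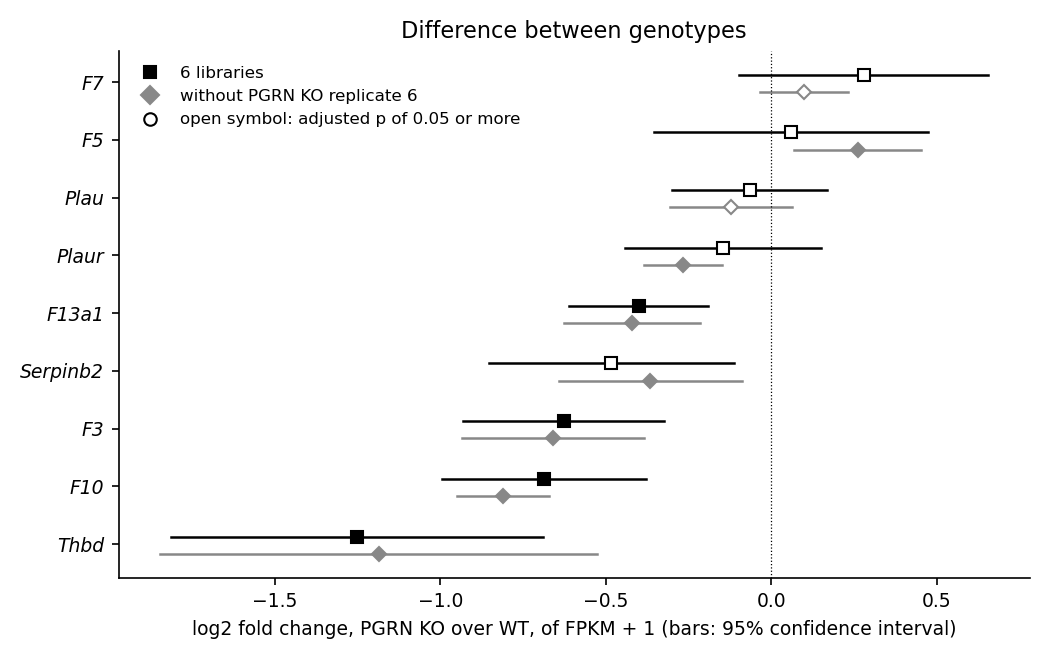
Log2 fold change of PGRN KO over WT for the 9 genes on the log2(FPKM + 1) scale with 95% confidence intervals, with all 6 libraries (squares) and without PGRN KO replicate 6 (diamonds). Filled symbols pass the threshold; 4 genes pass with all libraries and 7 without replicate 6, of which F5 is the one that is higher in PGRN KO.

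Without PGRN KO replicate 6, 7 of the 9 genes passed the threshold, 6 lower and F5 higher, against 41.3% of all tested genes in the same fit. The genes added were F5, Plaur and Serpinb2. This library was compared with the mean of PGRN KO replicates 4 and 5 for each gene. It was at 1.46 times that mean for F7, the shortest of the 9 gene models with 1859 bases, and at 0.506 times for F5, the longest with 7430 bases. F10 and Plaur, of 2731 and 2617 bases, were at 1.30 and 1.28 times. Serpinb2, of 2349 bases, was at 0.784 times, whereas tested genes of a like length (median 2143 bases) had a median log2 difference of 0.30. Across the 9 genes the Spearman correlation of this difference with gene length was -0.48, and across all 8882 tested genes it was -0.54; these are correlations across genes of the same 3 libraries, given as a description. After a loess correction of each library for gene length, 2814 of the 8882 tested genes passed. Of the 9 genes, F3, F10 and Thbd passed (limma adjusted p 0.0044, 0.0014 and 0.0089) and F13a1 did not (0.0570).

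**Figure D3:**
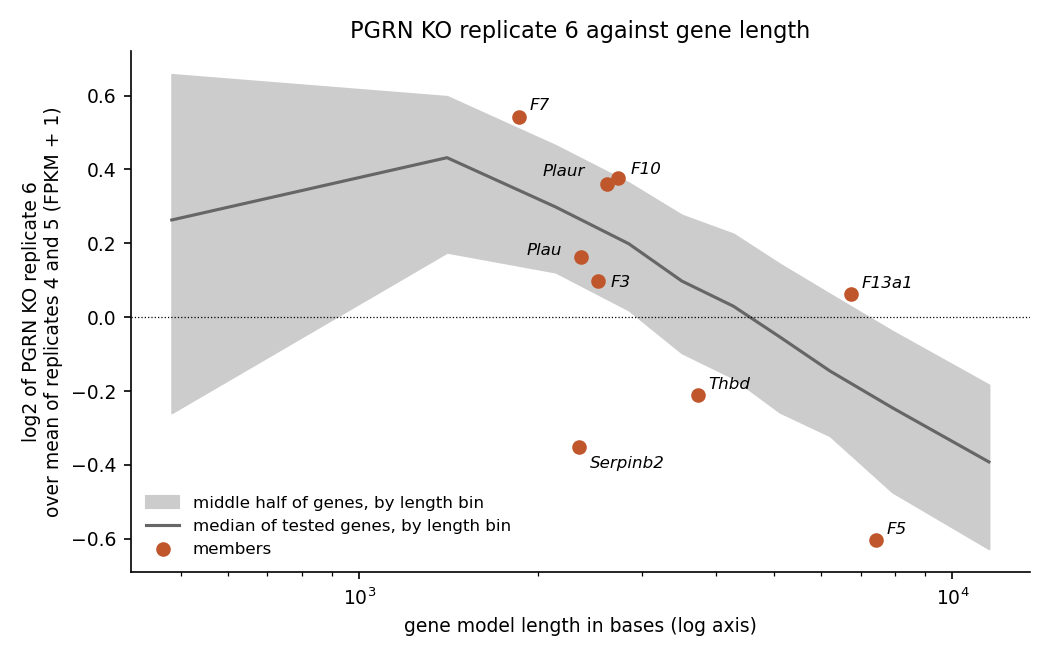
Log2 of PGRN KO replicate 6 over the mean of replicates 4 and 5 (FPKM + 1) against gene model length (log axis), for the 9 genes (points) and for all tested genes in 10 bins of length (line: median, band: interquartile range). The median of all genes falls with length from the second bin on, F7, F10, Plaur and F13a1 lie above it, and Serpinb2, Thbd and F5 lie below the band.

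To compare members free of the scaling between libraries, ratios of FPKM + 0.1 were formed within each library. The ratio of F10 to F7 was 7.56, 8.03 and 7.17 in WT and 3.89, 4.17 and 3.57 in PGRN KO. Its lowest value in WT was well above its highest in PGRN KO, and replicate 6 lay near the other PGRN KO libraries. The difference on the log2 scale was -0.97, and it was -1.02 to -0.91 with each library left out. The ratio of Plau to Serpinb2, of the protease to its inhibitor, was 0.0095 to 0.0131 in WT and 0.0119 to 0.0183 in PGRN KO, and the groups overlapped. The ratio of Plau to Plaur was 0.0633 to 0.0677 in WT and 0.0631 to 0.0774 in PGRN KO, and that of F3 to Thbd was 70.4 to 180 in WT and 143 to 212 in PGRN KO, again with overlap. Exact two-sided permutation tests gave p = 0.1 for F10 to F7, 0.2 for Plau to Serpinb2 and for F3 to Thbd, and 0.7 for Plau to Plaur, which became 0.267, 0.267, 0.267 and 0.7 when adjusted over the 4 ratios; 3 against 3 libraries cannot go below 0.1.

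In WT the order of levels was Serpinb2, F3, F10, Plaur, F7, Plau, Thbd, F5 and F13a1. Each gene was above the next in all 3 libraries with no overlap of ranges, except F5 and F13a1, whose ranges overlapped and which kept this order in 2 of 3 libraries. In PGRN KO the order was the same but for F10 and Plaur, which changed places. The ratio of F10 to Plaur, chosen after its values were seen and given with no test, was 1.24, 1.28 and 1.16 in WT and 0.836, 0.846 and 0.851 in PGRN KO. F10 was thus above Plaur in every WT library and below it in every PGRN KO library, although the ranges of the 2 genes over the PGRN KO libraries overlapped. F5 was above F13a1 in all 3 PGRN KO libraries.

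**Figure D4:**
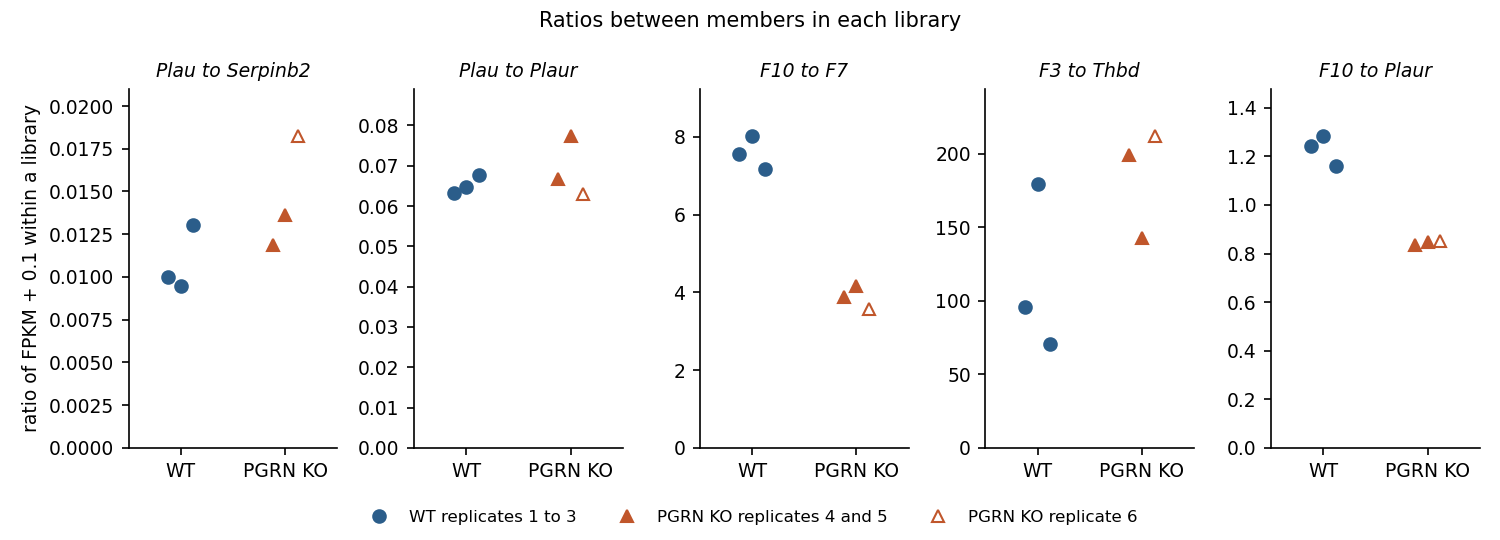
Ratios of FPKM + 0.1 between members within each library (linear axes from 0), with WT as circles, PGRN KO as triangles and PGRN KO replicate 6 as an open triangle. The ratios of F10 to F7 and of F10 to Plaur lie apart, with PGRN KO below WT in each, and the other 3 ratios overlap.

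Next, 48 other genes of clotting, anticoagulation, fibrinolysis and thrombin signalling were examined. Of these, 14 were expressed highly enough to be tested and 4 passed the threshold, 2 higher and 2 lower, against 24.2% of all tested genes; the median log2 fold change of the 14 was -0.11. No fragment was counted in any library for 12 of the 48, among them prothrombin (F2), fibrinogen alpha (Fga), plasminogen (Plg) and protein C (Proc), for which 3 fragments in the smallest library would be 0.0442, 0.0674, 0.0547 and 0.13 FPKM. These 4 were thus not detectable at this depth.

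Among clotting factors and the proteins that mature them, 5 of 19 genes were tested. Vwf, which encodes the von Willebrand factor that carries factor VIII and tethers platelets, rose from a WT mean of 4.67 ± 0.284 FPKM (SD, n = 3) to 10.9 ± 1.42 FPKM (limma adjusted p 0.00206 for 1.06 on the log2 scale) and passed in 13 of 13 alternative settings. Lman1 and Mcfd2 encode the 2 parts of the receptor that carries factors V and VIII out of the endoplasmic reticulum. Lman1 rose from 2.65 ± 0.172 to 3.47 ± 0.140 FPKM (limma adjusted p 0.0487, kept in 6 of 13 alternatives), while Mcfd2 fell from 35.8 ± 3.59 to 24.7 ± 1.499 FPKM (limma adjusted p 0.0140, kept in 11 of 13). Tgm2, a transglutaminase related to factor XIII, had 279 ± 8.48 FPKM in WT against 236 ± 13.02, and its adjusted p of 0.0983 became 0.0146 without PGRN KO replicate 6.

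Of 12 anticoagulant genes, 3 were tested. Anxa5, which encodes an annexin that covers the phosphatidylserine on which clotting factors assemble, was lower, with 698 ± 41.1 FPKM in WT against 501 ± 67.4 (limma adjusted p 0.0339 for -0.48 on the log2 scale, kept in 7 of 13 alternatives). Procr, the endothelial protein C receptor and partner of thrombomodulin, had 377 ± 11.3 FPKM in WT against 312 ± 48.1; its adjusted p, 0.148, was 0.00361 without PGRN KO replicate 6. Pros1, the cofactor of protein C, was at 2.52 ± 0.211 and 2.68 ± 0.194 FPKM (log2 fold change 0.06, 95% confidence interval -0.16 to 0.29, adjusted p 0.643). Tfpi, the inhibitor of tissue factor and factor VII, was below the limit for testing at 0.555 ± 0.0768 and 0.934 ± 0.0762 FPKM, on 47 to 96 fragments per library.

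Of 13 genes of plasminogen activation and fibrinolysis, 6 were tested and none passed the limma threshold. At an unadjusted p under 0.05 there were none either, nor by voom on the recovered fragments; Eno1 passed with quality weights, and Eno1 and S100a10, which encode plasminogen receptors, without PGRN KO replicate 6. Plat, which encodes tissue plasminogen activator, was below the limit for testing at 0.380 ± 0.0934 and 0.182 ± 0.0477 FPKM, on 14 to 45 fragments. None of the 4 protease-activated receptors reached the limit. F2r, the main thrombin receptor, was at 0.140 ± 0.0226 and 0.240 ± 0.0285 FPKM, and F2rl1 rested on at most 2 fragments per library.

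**Figure D5:**
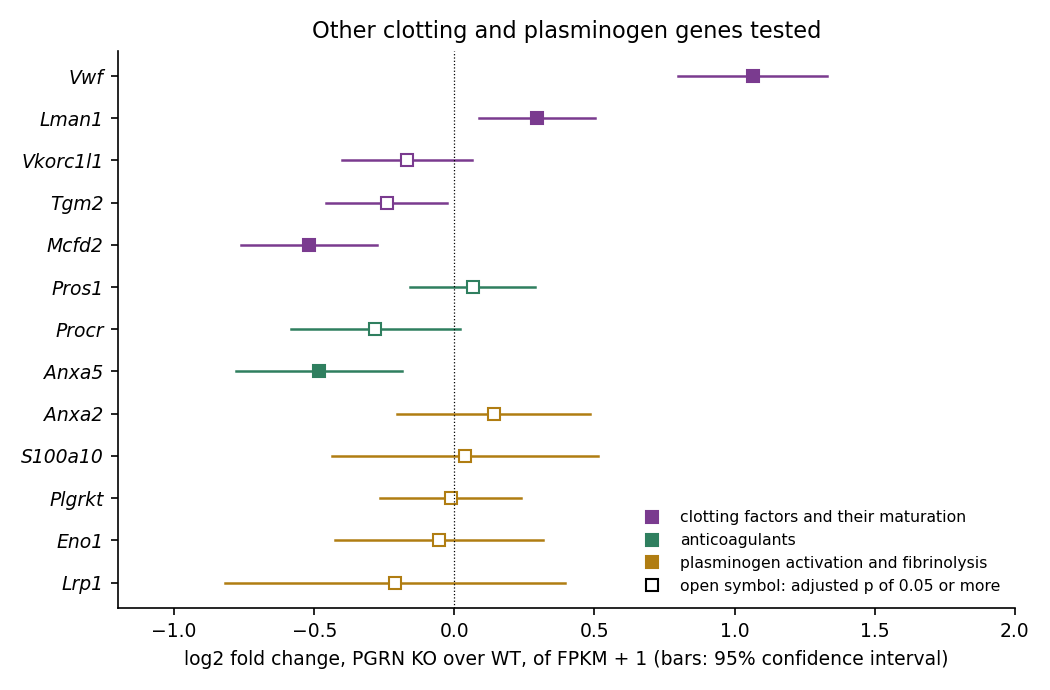
Log2 fold change of PGRN KO over WT on the log2(FPKM + 1) scale with 95% confidence intervals for 13 of the 14 other clotting and plasminogen genes that were tested, coloured by role. Filled symbols pass the threshold: Vwf and Lman1 are higher, and Mcfd2 and Anxa5 lower.

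In bulk RNA, fewer cells of a type and less RNA per cell cannot be told apart, and markers of other cells differed between the genotypes. The summed level of 10 markers of small peritoneal macrophages and monocytes was 303 to 322 FPKM in WT and 143 to 208 FPKM in PGRN KO. Most of this sum was H2-Aa (109 to 114 and 53.0 to 72.5 FPKM) and H2-Eb1 (142 to 156 and 48.8 to 78.5 FPKM). Of the 10 markers 8 were tested, of which 4 were lower and 1 higher, and Cd209a was at 0. The 6 B cell markers summed to 4.79 to 6.08 FPKM in WT and 19.0 to 24.1 FPKM in PGRN KO, with all 3 tested markers higher. The 6 mast cell markers summed to 2.29 to 3.19 and 9.72 to 14.0 FPKM, with both tested markers higher. Endothelial markers, of interest for Vwf, Thbd and Procr, summed to 1.46 to 2.13 and 2.34 to 3.23 FPKM over 6 genes, of which Cdh5 was tested (limma adjusted p 0.0539) and Cldn5 was at 0. Without PGRN KO replicate 6, Cdh5 passed as higher in PGRN KO (limma adjusted p 0.00597 for 0.65 on the log2 scale). Of 7 platelet markers Pf4 alone was tested (limma adjusted p 0.964), Gp1bb was at 0, and their sum was 53.2 to 61.7 FPKM in WT and 47.1 to 71.4 FPKM in PGRN KO. Nearly all of it was Pf4 (53.0 to 60.8 and 46.6 to 70.9 FPKM). The 11 markers of large peritoneal macrophages summed to 203 to 224 and 194 to 221 FPKM, mostly through Adgre1 (178 to 195 and 162 to 189 FPKM), which is also in the general macrophage list, with 2 of 5 tested markers, Icam2 and Lrg1, higher. Neutrophil markers, of which S100a8 alone was tested and was lower, summed to 48.8 to 53.1 and 21.4 to 26.4 FPKM, with Ly6g, Elane and Cxcr2 at 0. Nearly all of this sum was S100a8 (48.3 to 52.8 and 21.2 to 25.6 FPKM), and S100a9, Mpo, Camp and Ltf were at or below 0.443 FPKM. T cell markers summed to 3.85 to 4.399 and 5.00 to 8.28 FPKM, and the tested ones, Lck and Trac, had limma adjusted p of 0.186 and 0.534. Mesothelial and fibroblast markers, all too low to be tested, summed to 1.12 to 1.19 and 2.07 to 3.76 FPKM. General macrophage markers summed to 7172 to 7493 FPKM in WT, to 7403 and 7285 FPKM in PGRN KO replicates 4 and 5 and to 9794 FPKM in replicate 6, with Mertk higher and Csf1r lower. The part of these cells in the results above was not tested.

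Finally, the genes whose pattern over the 6 libraries was most like that of Thbd, which had the largest called decrease of the 9 genes, were listed by the Pearson correlation of log2(FPKM + 1). These were Vav2 (0.994), Impa1 (0.991) and Nol9 (0.988). Vav2, which encodes an exchange factor for small GTPases, had 1.43 ± 0.188 FPKM in WT against 0.836 ± 0.116 (limma adjusted p 0.0345). Impa1 and Nol9 did not pass the threshold (limma adjusted p 0.0910 and 0.0989). These are the highest of 8882 correlations over 6 libraries and are a description of the pattern.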

How the data were processed

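Polyadenylated RNA of 6 libraries had been sequenced as paired-end reads. The authors removed reads of low quality or with adaptor, aligned the rest to the mouse genome, counted fragments per gene and deposited FPKM. The text of the study names HISAT and HTSeq, while the submitters' processing notes name HISAT2 2.0.5 and featureCounts 1.5.0-p3 and the build GRCm38; annotation release and use of strand: not given in the sources used here. All 9 genes had the same coordinates in GENCODE M21.

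Within each library, FPKM multiplied by gene length gave whole fragments (tolerance 0.001). The library size the authors divided by was 0.925 to 1.09 times their sum. The study tested counts; since the deposited values are FPKM, limma 3.58.1 in R 4.3.3 was fitted to log2(FPKM + 1) of every gene averaging 1 FPKM or more (empirical Bayes with a mean-variance trend, two-sided, no covariates) and was tested on simulated data, where its share of false calls exceeded the threshold. The genes, lists and tests were chosen with earlier results of these data known. Named genes were the 9 genes, the called genes and direct partners among 48 others (1 of these is counted but not reported here), and the 3 genes most like the leading member. Alternatives were another pseudocount, no filter, 2 other scalings, quality weights, voom on recovered fragments, a length correction and each library left out. Counts carry counting error only, since reads are not independent molecules.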

Additional observations from a re-analysis of the deposited data

How the results depend on the processing

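No paired analysis was possible because replicate numbers 1 to 3 were WT and 4 to 6 PGRN KO. Of 117 comparisons of the 9 fold changes with an alternative, 94 kept direction and call, 15 lost the call, 5 gained it and 3 changed sign. The 4 called genes were lower under all 13 alternatives. Without a filter on low values, 22912 genes were fitted and adjusted together, against 8882 with it. Of these 1366 passed, against 2151 of the 8882. Among them were 2 of the 9 genes (F10 and Thbd), against 4, and 2 of 36 other clotting and plasminogen genes, against 4 of 14. Sample quality weights, which gave PGRN KO replicate 6 a weight of 0.0899, gave 6 of the 9 genes (Plaur and Serpinb2 added, adjusted p 0.0103 and 0.0106), 7 of the other genes and 4225 of all genes. With each library left out the counts were 0 to 7, 1 to 8 and 713 to 3668. None of the 9 genes passed without WT replicate 1, only Thbd without WT replicate 2, F10 and Thbd when PGRN KO replicate 4 was left out, and 7 without replicate 6. In the same fits, in this order, 713, 855, 1390 and 3668 of the 8882 tested genes passed, so the number called moved over all genes as well. The cause was not tested. The log2 fold change of F5 was -0.043 to 0.26 and that of Plau -0.12 to 0.0048 with each library left out, and neither was called with all libraries. The log2 difference of the ratio of Plau to Plaur, 0.078, was -0.0068 to 0.14. Of all called genes 42.8% were higher, and 60.3% with each library rescaled to the same sum, where F13a1 did not pass (adjusted p 0.0573).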

Other observations

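The nearest protein-coding gene on each side of the 9 genes, leaving out genes that overlap them, was looked up after the data had been seen. Of 16 such genes outside the group 7 were tested and 1 passed, against 24.2% of all tested genes. The 3 described here were chosen after their values were seen. Serpinb8, another clade B serpin, lies 54527 bases after Serpinb2 and was lower in PGRN KO, with 5.52 ± 0.241 FPKM in WT against 4.24 ± 0.340 (SD, n = 3 each; limma adjusted p 0.0443 for -0.32 on the log2 scale). Proz, which encodes the anticoagulant protein Z, lies 4237 bases after F10 and had 0.390 ± 0.0355 FPKM in WT against 0.177 ± 0.0477, with separate groups but below the limit for testing. Cd93, which encodes a receptor related to thrombomodulin and lies 28451 bases from Thbd, was at 12.8 ± 1.84 and 18.5 ± 4.604 FPKM (log2 fold change 0.48, limma adjusted p 0.116), whereas Thbd fell.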
